A study of Mus musculus with 6 samples.

Results

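The genes followed here are 6 genes of cellular senescence and of the p53 response, Cdkn2a, Cdkn2b, Mdm2, Ccng1, Bax and Igfbp3, chosen by name out of 38483 genes listed for each culture. All 6 lie on the minus strand and all 6 passed the filter on low counts. RNA-seq was done on 3 WT and 3 Nipbl+/- cultures of mouse embryonic fibroblasts (MEFs) of the CD1 strain, untreated and taken at passage 3. The Nipbl+/- cells carry a heterozygous knockout of Nipbl, the gene of the cohesin loader and serve as a model of Cornelia de Lange syndrome. By the study's methods, MEFs were grown from the minced trunk of mid-gestation littermates of a single pregnant mouse, without limbs, brain and internal organs. The p-values below therefore measure the spread among cultures of that litter. Senescence itself was not assayed in these cultures, so the gene group is named for the known roles of its members.

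Primary fibroblasts divide for a limited number of passages and then stop, and in mouse cells this arrest runs largely through the Ink4 locus and p53. The locus holds Cdkn2b, which encodes the CDK4 and CDK6 inhibitor p15INK4b, and Cdkn2a, which encodes p16INK4a and, from a separate first exon read in another frame, p19ARF. The INK4 proteins keep RB active and so hold back the entry into S phase, and p19ARF binds MDM2, the ubiquitin ligase that marks p53 for degradation. Mdm2 and Ccng1 (cyclin G1) are themselves induced by p53 and feed back on it, Bax encodes the BCL2-family protein that opens the outer mitochondrial membrane during apoptosis, and Igfbp3 encodes a secreted binding protein of insulin-like growth factors that p53 can also induce.

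In mm10, the files placed Cdkn2a at chr4:89274473-89294653 and Cdkn2b at chr4:89306289-89311032, with 11635 bases between them. GENCODE M21 gives Cdkn2a 2 transcripts, whose starts lie 12461 bases apart and which share 575 exonic bases. A count per gene therefore holds the p16INK4a and the p19ARF transcript together, and the 2 cannot be told apart here. The other genes lay at chr10:117688888-117710758 (Mdm2), chr11:40748552-40755311 (Ccng1), chr7:45461695-45466898 (Bax) and chr11:7206086-7213923 (Igfbp3). The 250 bases before the RefSeq start are shown for the neighbours Cdkn2a and Cdkn2b, whose counts had nearly the same profile over the cultures, and for Ccng1, which holds a p53 response element there. The windows are chr4:89294620-89294869 and chr4:89282193-89282442 (Cdkn2a), chr4:89311033-89311282 (Cdkn2b) and chr11:40755287-40755536 (Ccng1) of GRCm38.p6, the mm10 build, printed 5′ to 3′ on the minus strand. Capitals mark GC boxes in Cdkn2a, a cAMP response element in Cdkn2b, and CCAAT boxes and the p53 element in Ccng1.
Cdkn2a, upstream start (p19ARF): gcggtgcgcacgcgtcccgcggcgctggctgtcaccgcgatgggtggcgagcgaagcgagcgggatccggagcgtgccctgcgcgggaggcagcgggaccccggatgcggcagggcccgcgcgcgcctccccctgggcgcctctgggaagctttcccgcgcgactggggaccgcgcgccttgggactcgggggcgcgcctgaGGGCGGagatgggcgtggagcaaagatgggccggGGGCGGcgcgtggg
Cdkn2a, downstream start (p16INK4a): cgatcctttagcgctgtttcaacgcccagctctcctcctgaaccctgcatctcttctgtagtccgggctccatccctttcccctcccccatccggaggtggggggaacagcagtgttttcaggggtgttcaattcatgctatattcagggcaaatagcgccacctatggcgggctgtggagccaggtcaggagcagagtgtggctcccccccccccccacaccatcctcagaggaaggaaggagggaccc
Cdkn2b: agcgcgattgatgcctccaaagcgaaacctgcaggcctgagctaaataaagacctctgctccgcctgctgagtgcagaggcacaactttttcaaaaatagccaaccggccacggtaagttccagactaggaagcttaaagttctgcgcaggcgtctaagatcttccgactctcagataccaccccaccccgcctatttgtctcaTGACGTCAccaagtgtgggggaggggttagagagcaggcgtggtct
Ccng1: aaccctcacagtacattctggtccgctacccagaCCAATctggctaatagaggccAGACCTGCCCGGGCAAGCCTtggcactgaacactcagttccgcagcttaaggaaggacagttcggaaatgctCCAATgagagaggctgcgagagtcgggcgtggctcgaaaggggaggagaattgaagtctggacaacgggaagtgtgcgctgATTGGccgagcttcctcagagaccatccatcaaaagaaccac

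The upstream start of Cdkn2a had 2 matches to the GC box GGGCGG, a motif present in 32.7% of the 32851 RefSeq promoter windows of that length. Its downstream start had none of the 6 motifs searched, each on both strands, which were the TATA box (TATAAA), the CCAAT box, the GC box, the cAMP response element (TGACGTCA), the E-box (CACGTG) and the p53 element. Cdkn2b held TGACGTCA at 39 to 46 bases before its start, a match found in 1.55% of windows, and shared no marked motif with either Cdkn2a window. The p53 element was searched as 2 adjoining decamers of the consensus with at most 1 mismatch and with the 4 core bases intact. Among the 6 genes it was found in Ccng1, as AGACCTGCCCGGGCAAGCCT at chr11:40755462-40755481, 176 to 195 bases before the start. It was present in 19 of all windows (0.0578%), among them that of Cdkn1a, the p21 inhibitor and a classical p53 target. Of these 19 genes 3 could be tested, Ccng1, Calhm2 and Sptbn4, and none passed. The Mdm2 window held 2 GC boxes and a CCAAT box, that of Bax 2 GC boxes and the E-box CACGTG, and that of Igfbp3 none of the motifs. A match is a match of letters in this window only.

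Total counts were between 20307454 and 25990783 per culture, and the 19214 plus-strand genes of the table all had 0 reads in every culture. Cdkn1a, Trp53, Ppm1d, Cdk4, Cdk6, Bmi1, Bbc3 (PUMA), Pmaip1 (NOXA), Fas, Igf1, Igf1r, Igfbp4, Lmnb1 and Il6 belong to these and have no usable value. Of the minus strand, 9061 genes were tested, and 1.95% of them had an adjusted p under 0.05 (94 higher and 83 lower in Nipbl+/-). Levels are given as TMM-scaled CPM unless RPKM, which is also scaled by gene length, is named. Changes are log2 fold changes of Nipbl+/- against WT in the quasi-likelihood test of edgeR, with p-values adjusted after Benjamini and Hochberg over all tested genes. Nipbl, the targeted gene, had 128.4, 144.8 and 134.7 CPM in WT replicates 1, 2 and 3, and 100.7, 101.3 and 100.3 CPM in Nipbl+/- replicates 1, 2 and 3. It fell by 25.9% (log2 fold change -0.43, SE 0.06, edgeR adjusted p = 0.0213). The adjusted p was 0.0755, 0.0864 and 0.0772 in edgeR without WT replicate 1, Nipbl+/- replicate 1 and Nipbl+/- replicate 2. The 4 fibroblast markers that could be tested (Col6a1, Fn1, Prrx1 and Fap, of 16 listed) summed to between 15174 and 18902 CPM in the 6 cultures, nearly all of it from Fn1. None of the 4 passed in edgeR's quasi-likelihood test (DESeq2 gave Prrx1), and their differences had both signs. Col6a1 was at 596.9 ± 148 CPM in WT against 423.5 ± 70.6 in Nipbl+/-, Prrx1 at 321.0 ± 22.8 against 260.8 ± 15.6, and Fap at 29.3 ± 9.55 against 45.5 ± 5.39 (SD, n = 3, edgeR adjusted p = 0.227, 0.0661 and 0.181). Sox10, a neural crest gene, had at most 8 reads in any culture. Of the epithelial keratins, Krt5 had at most 4 reads, Krt14 had 0, 0 and 3 reads in WT and 10, 6 and 10 in Nipbl+/-, and Krt8 was at 0.325 to 0.445 CPM in WT and 0.586 to 2.01 CPM in Nipbl+/- (edgeR adjusted p = 0.227).

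Cdkn2a and Cdkn2b, the INK4 genes of the Ink4 locus, were at lower CPM in every Nipbl+/- culture than in any WT culture, and neither passed the threshold in edgeR's quasi-likelihood test. Cdkn2a was at 154.1, 126.7 and 142.1 CPM in the WT cultures and at 97.0, 115.0 and 93.1 CPM in the Nipbl+/- cultures. The groups did not overlap, with WT replicate 2 the lowest of its group and Nipbl+/- replicate 2 the highest of the other. The group means were 141.0 ± 13.7 and 101.7 ± 11.7 CPM (SD, n = 3 each), a ratio of 0.722 and a log2 fold change of -0.47 (SE 0.10, 95% interval -0.69 to -0.25). The unadjusted p was 0.00117 and the edgeR adjusted p 0.0536, just outside the threshold of 0.05. It was inside it without WT replicate 2, at -0.54 with an edgeR adjusted p of 0.0316, and outside it without any other single culture (0.0770 to 0.175), with the replicate number as a block (0.108) and with limma on RPKM (0.0908). With edgeR's exact test the adjusted p was 0.00448, with DESeq2 2.69e-04, and with no filter on low counts 0.0186.

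Cdkn2b showed the same order of cultures. Its level was 172.8, 152.5 and 163.3 CPM in WT and 124.8, 143.7 and 114.8 CPM in Nipbl+/-, again with no overlap. The means were 162.9 ± 10.2 and 127.8 ± 14.7 CPM (SD, n = 3), with a ratio of 0.785 and a log2 fold change of -0.35 (SE 0.09, 95% interval -0.55 to -0.15, edgeR adjusted p = 0.0870). The gene passed the threshold with edgeR's exact test (adjusted p = 0.0445), with DESeq2 (adjusted p = 0.00636) and with no filter on low counts (adjusted p = 0.0480). Together the 2 genes gave 303.8 ± 23.9 CPM in WT and 229.5 ± 26.3 CPM in Nipbl+/- (SD, n = 3). Per length, the Cdkn2a RPKM divided by the Cdkn2b RPKM was 1.06, 0.989 and 1.04 in WT and 0.926, 0.953 and 0.965 in Nipbl+/-, so that the 2 genes stood at nearly equal levels in all cultures. The exact permutation test of 3 against 3 cultures cannot give a p below 0.1, and gave 0.1 for each of Cdkn2a, Cdkn2b, Mdm2 and Ccng1. RNA of a culture is a sum over its cells, so fewer cells with INK4 RNA and less of it per cell cannot be told apart.

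**Figure D1:**
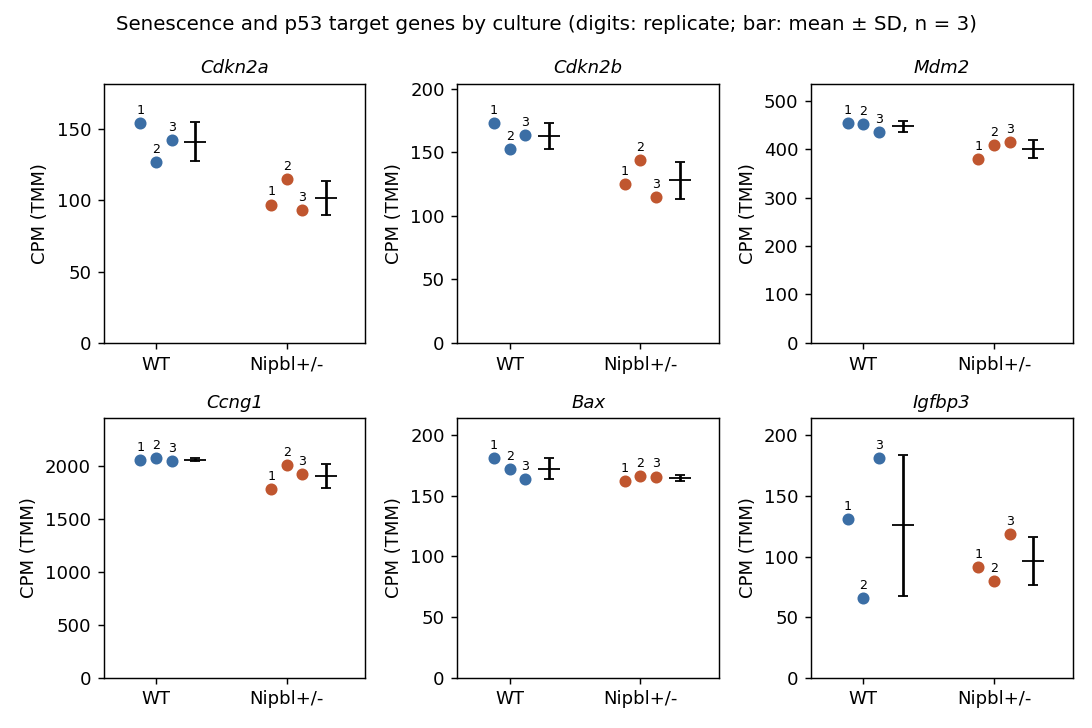
TMM-scaled CPM (vertical axis, from 0) of each of the 6 genes in the 3 WT and 3 Nipbl+/- cultures, with the replicate number above each point and the mean ± SD of the group as a bar. The Nipbl+/- cultures lie below all WT cultures for Cdkn2a, Cdkn2b, Mdm2 and Ccng1, while those of Bax and Igfbp3 overlap with WT, and Igfbp3 spreads from 65.5 to 181.4 CPM within WT.

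Mdm2 and Ccng1, the feedback genes of p53, had smaller differences of the same sign. Mdm2 was at 453.5, 452.6 and 434.3 CPM in WT and at 378.7, 408.8 and 414.0 CPM in Nipbl+/- cultures. The groups did not overlap, and the log2 fold change was -0.16 (SE 0.05, 95% interval -0.27 to -0.04, unadjusted p 0.0137, edgeR adjusted p = 0.162). Ccng1, the most abundant of the 6 genes, was at 2054, 2073 and 2046 CPM in WT and at 1784, 2009 and 1920 CPM in Nipbl+/-. Its WT cultures had a coefficient of variation of 0.665%, while Nipbl+/- replicate 1 stood lowest of all. The log2 fold change of Ccng1 was -0.11 (SE 0.05, 95% interval -0.23 to 0.0032, edgeR adjusted p = 0.307). The relative of Mdm2 that also binds p53, Mdm4, was at 57.6 ± 4.0 CPM in WT against 54.1 ± 1.07 CPM in Nipbl+/- (SD, n = 3), with an edgeR adjusted p of 0.511.

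Bax, the effector of apoptosis, had 181.0, 172.3 and 163.6 CPM in WT and 162.0, 166.2 and 165.7 CPM in Nipbl+/- cultures. The groups overlapped, since WT replicate 3 was below Nipbl+/- replicates 2 and 3. The log2 fold change was -0.07 (SE 0.05, 95% interval -0.19 to 0.06, edgeR adjusted p = 0.592). Of the 1576 exonic bases of Bax, 192 (12.2%) lie also in Gm45808, a gene of the same strand in GENCODE M21. Gm45808 is not among the genes counted here, so reads from the shared bases cannot be assigned with certainty. The length implied by the Bax counts and RPKM was 899 bases, so 12.2% is a share of annotated bases and not of counts. None of the other 5 genes shares exonic bases with another annotated gene.

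Igfbp3 varied more among WT cultures than between the genotypes. It was at 130.8, 65.5 and 181.4 CPM in WT and at 91.3, 79.9 and 118.4 CPM in Nipbl+/-. WT replicates 2 and 3 were the lowest and the highest of all 6 cultures, and the Nipbl+/- values lay between them. The log2 fold change was -0.38 (SE 0.31, 95% interval -1.10 to 0.34, edgeR adjusted p = 0.592), a difference about the size of that of Cdkn2b, whose SE was 0.09. Without WT replicate 3 it was -0.02, and without WT replicate 2 it was -0.69 with an edgeR adjusted p of 0.0922. The exact permutation p was 0.6 for Igfbp3 and 0.3 for Bax.

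By length-scaled level, the order of the genes was Ccng1, Bax, Cdkn2b, Cdkn2a, Mdm2 and Igfbp3, with mean RPKM over the 6 cultures of 544.8, 187.2, 100.6, 99.9, 80.7 and 34.4. Ccng1 stood above 98.4% of the tested genes and Igfbp3 above 80.8%. Cdkn2a and Cdkn2b were close in RPKM, with 114.7 ± 11.3 and 111.3 ± 7.27 in WT and 85.2 ± 9.26 and 89.9 ± 9.59 in Nipbl+/- (SD, n = 3). Within the same culture, Cdkn2a was slightly below Cdkn2b in every Nipbl+/- culture (ratio 0.926 to 0.965), while in WT the ratio was 0.989 to 1.06. Mdm2 RPKM was lower than Cdkn2a RPKM in WT (83.9 ± 0.0887), while in Nipbl+/- (77.5 ± 4.58) the cultures of the 2 genes overlapped. The coefficient of variation of the CPM within WT ran from 0.665% for Ccng1 to 46.2% for Igfbp3. Among the 200 tested genes nearest in level, this put Igfbp3 at the 100th percentile in WT and at 98.5 in Nipbl+/-, and Ccng1 at 4 and 82. Cdkn2a and Cdkn2b were among the more variable genes of their level in Nipbl+/-, at percentiles 94 and 95.5. The range of reads behind these values was 1949 to 3396 for Cdkn2a and 1471 to 3910 for Igfbp3. How far counting error and spread between cultures each enter their errors was not worked out.

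All 6 genes had log2 fold changes below 0, as did 51.6% of all tested genes. Their median was -0.25, against -0.0057 over all tested genes. At an adjusted p under 0.05, 0 of 6 were lower in edgeR's quasi-likelihood test, where 0.916% of the tested genes were. At an unadjusted p under 0.05, 3 of 6 were lower (Cdkn2a, Cdkn2b and Mdm2), where 7.95% of the tested genes were. DESeq2 gave 2 of 6 as lower at an adjusted p under 0.05, Cdkn2a and Cdkn2b, against 2.34% of all tested genes. In 4 of 6 genes every Nipbl+/- culture was below every WT culture, against 10.8% of the tested genes. Since the genes were picked with earlier results of these data known and 2 of them are neighbours of one locus, these counts are a description.

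**Figure D2:**
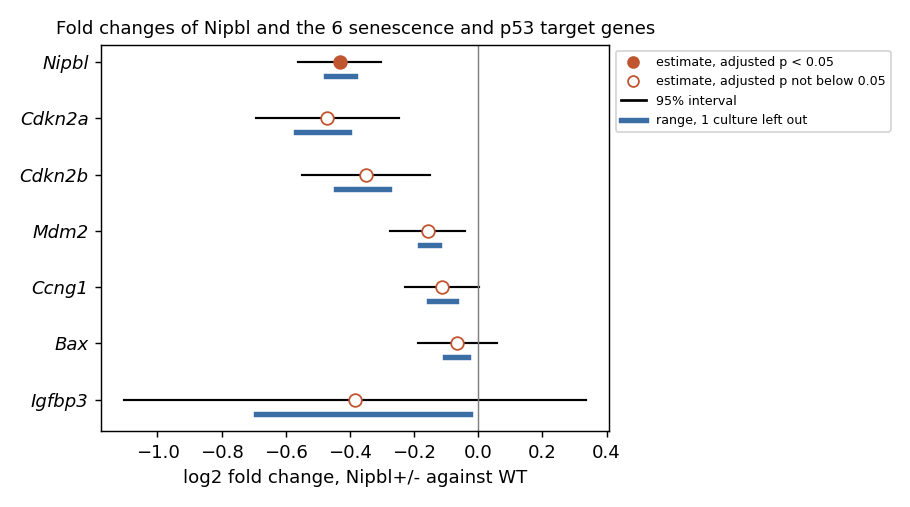
Log2 fold change of Nipbl+/- against WT (horizontal axis) for Nipbl and the 6 genes, with the 95% interval as a thin black line and the range over the fits that each leave out 1 culture as a thick blue line. Only Nipbl is filled for an adjusted p under 0.05, the intervals of Cdkn2a, Cdkn2b and Mdm2 stay below 0, and the blue line of Igfbp3 runs from -0.69 to -0.02.

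Around the INK4 genes, the list of the INK4, ARF and RB axis held 22 genes, of which 13 were tested. Cdk2, the kinase that drives S-phase entry with cyclin E, rose from 29.7 ± 1.67 to 37.5 ± 1.41 CPM (SD, n = 3, log2 fold change 0.33, edgeR adjusted p = 0.0469). It was the only gene of the list to pass in edgeR's quasi-likelihood test, where 1.04% of all tested genes were higher. Cdk2 passed without WT replicate 2 (edgeR adjusted p = 0.0342) and missed the threshold without any other single culture (0.101 to 0.175). The exact and likelihood ratio tests of edgeR and DESeq2 each gave 5 of the 13, of which 3 were higher and 2 lower (Cdkn2a and Cdkn2b). DESeq2 gave 4.96% of all tested genes in either direction. At an unadjusted p under 0.05, 4 genes of the list were higher, where 8.98% of all tested genes were, and 2 were lower, Cdkn2a and Cdkn2b. The other INK4 genes differed in sign from these: Cdkn2c (p18INK4c) was at 10.7 ± 1.45 CPM in WT against 14.1 ± 1.70 CPM in Nipbl+/- (log2 fold change 0.40, edgeR adjusted p = 0.177), and Cdkn2d (p19INK4d) at 7.81 ± 0.292 and 9.06 ± 0.799 CPM (edgeR adjusted p = 0.384). Cyclin E1 (Ccne1), a target of the E2F factors that RB holds back, was at 41.3 ± 1.25 and 50.2 ± 3.40 CPM (edgeR adjusted p = 0.0681). Cyclin D1 (Ccnd1), the partner of CDK4, was at 334.1 ± 72.9 and 256.1 ± 82.4 CPM (edgeR adjusted p = 0.441), and Rb1 at 60.6 ± 1.30 and 58.1 ± 1.95 CPM (edgeR adjusted p = 0.570).

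Of 21 genes known to regulate the Ink4 locus, 13 were tested and 0 passed at an adjusted p under 0.05 in edgeR's quasi-likelihood test or in DESeq2. At an unadjusted p under 0.05, 4 of 13 were higher and 0 lower, against 8.98% and 7.95% of all tested genes, and the median log2 fold change was 0.05. They include subunits of the Polycomb complexes that keep the locus silent in dividing cells. Phc1 (9.83 ± 1.12 and 13.01 ± 1.002 CPM, log2 fold change 0.40), the H3K27 methyltransferase gene Ezh2 (31.0 ± 4.06 and 37.2 ± 1.57 CPM, 0.26), the histone demethylase gene Kdm2b (37.8 ± 1.59 and 44.2 ± 1.01 CPM, 0.23) and Rnf2 (70.8 ± 3.91 and 81.7 ± 5.23 CPM, 0.21) had edgeR adjusted p-values of 0.131, 0.226, 0.0880 and 0.149. Of 21 names listed as p53 regulators 11 were tested, and 1 name, Pirh2, is another name of the tested Rchy1. Among the 11, 0 passed in edgeR's quasi-likelihood test or in DESeq2. At an unadjusted p under 0.05, 3 of 11 were higher and 1 lower (Mdm2), against the same 8.98% and 7.95%. Trp53bp1 was at 69.5 ± 4.37 and 79.3 ± 3.49 CPM (edgeR adjusted p = 0.160) and the acetyltransferase gene Kat5 at 29.3 ± 0.638 and 33.2 ± 0.685 CPM (edgeR adjusted p = 0.162).

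Of 47 p53 target genes in 3 lists (arrest and feedback, death, repair and metabolism), 27 were tested and 0 passed at an adjusted p under 0.05 in edgeR's quasi-likelihood test. Apart from Mdm2, Ccng1, Bax and Igfbp3, 23 targets remained, with a median log2 fold change of -0.05. In 5 of these 23 (21.7%) every Nipbl+/- culture was below every WT culture, against 10.8% of all tested genes. At an unadjusted p under 0.05, 5 were lower and 1 higher, where 7.95% and 8.98% of all tested genes were. The lower ones were Tnfrsf23, a decoy receptor of TRAIL (58.4 ± 5.58 and 46.8 ± 1.15 CPM, edgeR adjusted p = 0.0656), the epoxide hydrolase gene Ephx1 (263.0 ± 25.1 and 210.1 ± 6.59 CPM, 0.0641), the polyamine acetyltransferase gene Sat1 (313.9 ± 40.5 and 250.3 ± 12.9 CPM, 0.114) and the repair polymerase gene Polk (98.1 ± 4.52 and 86.7 ± 2.90 CPM, 0.144) and Sfn. Sfn, the sigma isoform of the 14-3-3 proteins, was at 1.89 ± 0.732 and 1.12 ± 0.147 CPM (edgeR adjusted p = 0.271). The higher one was Ckap2, a spindle protein gene, at 60.8 ± 4.47 and 80.4 ± 10.6 CPM (edgeR adjusted p = 0.0735). DESeq2 gave 4 of the 23 at an adjusted p under 0.05, Tnfrsf23, Ephx1 and Sat1 lower and Ckap2 higher, against 4.96% of all tested genes in either direction.

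Around Bax, 11 of 24 genes of the BCL2 family and the apoptosome were tested. Bid, the BH3-only gene whose product activates BAX after caspase cleavage, fell from 66.9 ± 5.33 to 52.4 ± 2.84 CPM (SD, n = 3, log2 fold change -0.35, edgeR adjusted p = 0.0469). It was the only one to pass in edgeR's quasi-likelihood test, where 0.916% of all tested genes were lower. Its cultures were at 62.2, 65.9 and 72.7 CPM in WT and at 54.2, 54.0 and 49.2 CPM in Nipbl+/-, with no overlap. It missed the threshold in edgeR when any single culture was left out (adjusted p 0.0579 to 0.127). The BAX-like effector gene Bak1 was at 117.1 ± 2.89 and 120.6 ± 4.16 CPM (edgeR adjusted p = 0.727), and the protective genes Bcl2l1 and Bcl2 at 98.6 ± 2.53 and 93.0 ± 0.546 CPM (0.405) and at 15.5 ± 1.67 and 18.4 ± 1.61 CPM (0.288). Bmf, another BH3-only gene, was at 2.06 ± 0.321 and 3.23 ± 0.407 CPM (edgeR adjusted p = 0.141). At an unadjusted p under 0.05, 2 of the 11 were higher and 1 lower, against 8.98% and 7.95% of all tested genes.

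Among 21 genes of the insulin-like growth factors and their binding proteins, 11 were tested, 0 passed in edgeR's quasi-likelihood test, and 3 were lower and 0 higher at an unadjusted p under 0.05, against 7.95% and 8.98% of all tested genes. DESeq2 gave 1 of 11, Pappa2, against 4.96% of all tested genes. The median log2 fold change was -0.20. Igfbp5 was at 180.5, 277.3 and 139.2 CPM in WT and at 164.3, 123.3 and 115.2 CPM in Nipbl+/- (log2 fold change -0.57, edgeR adjusted p = 0.276), with WT replicate 2 the highest where it was the lowest for Igfbp3. Pappa2, a protease of these binding proteins, was at 9.17 ± 1.83 and 4.75 ± 0.945 CPM (log2 fold change -0.95, edgeR adjusted p = 0.0511), and its inhibitor gene Stc2 at 6.05 ± 1.08 and 4.20 ± 0.478 CPM (edgeR adjusted p = 0.174). Igfbp7 was at 1098 ± 110 and 998.8 ± 62.7 CPM (edgeR adjusted p = 0.423) and the growth factor gene Igf2 at 490.8 ± 175 and 427.4 ± 46.0 CPM (edgeR adjusted p = 0.700).

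Of 34 genes of the senescence-associated secretome and other senescence markers, 25 were on the plus strand and 6 were tested. Csf1, the macrophage growth factor, fell from 476.6 ± 23.5 to 336.4 ± 23.4 CPM (SD, n = 3, log2 fold change -0.50, edgeR adjusted p = 0.0188). Its cultures were at 450.9, 481.8 and 497.1 CPM in WT and at 327.3, 318.9 and 363.0 CPM in Nipbl+/-. In edgeR it missed the threshold without WT replicate 1, Nipbl+/- replicate 1 or Nipbl+/- replicate 2 (adjusted p 0.0755, 0.0842 and 0.0755). Of the others, the angiogenic factor gene Vegfa was at 147.7 ± 3.02 and 125.6 ± 8.47 CPM (edgeR adjusted p = 0.0941), and Hmgb1, a chromatin protein gene that is lost from senescent nuclei, at 358.0 ± 6.02 and 411.8 ± 16.1 CPM (0.0729). Csf1 alone of the 6 passed in edgeR's quasi-likelihood test, where 0.916% of all tested genes were lower. At an unadjusted p under 0.05, 4 of 6 were lower and 1 higher, against 7.95% and 8.98% of all tested genes. DESeq2 gave 3 of 6, Csf1 and Vegfa lower and Hmgb1 higher, against 4.96% of all tested genes in either direction. Il1a, Il1b and Csf2 had at most 2 reads in any culture.

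**Figure D3:**
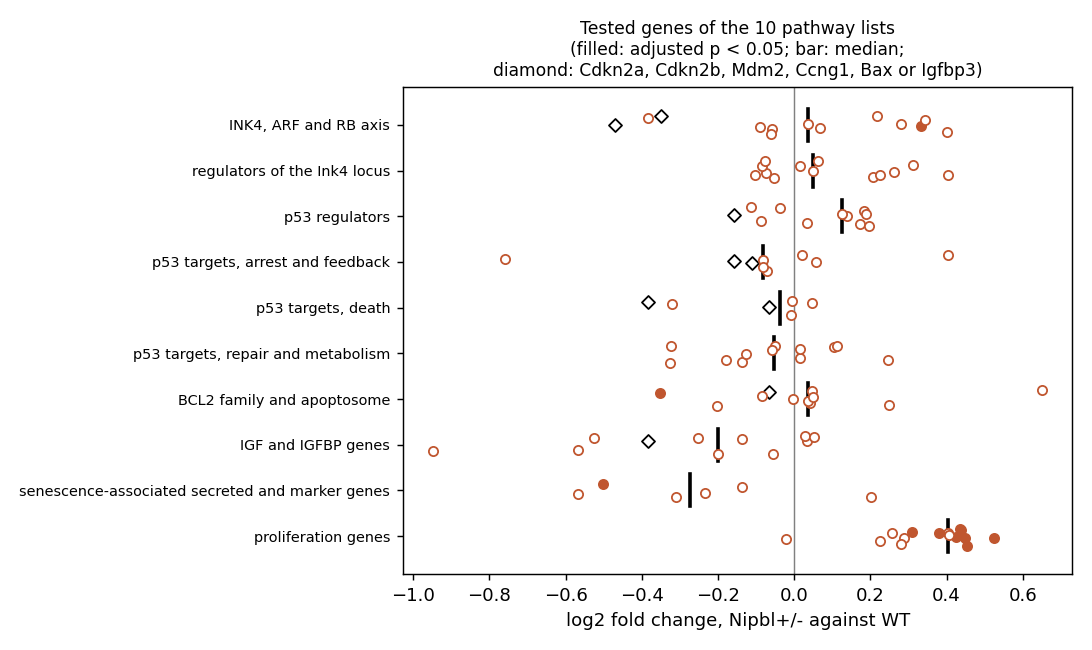
Log2 fold change of Nipbl+/- against WT (horizontal axis) for each tested gene of the 10 pathway lists (rows), with filled circles for an adjusted p under 0.05, diamonds for Cdkn2a, Cdkn2b, Mdm2, Ccng1, Bax and Igfbp3, and a bar at each list's median. The proliferation genes lie to the right with a median of 0.40 and 8 filled circles, the secretome and IGF lists have medians of -0.27 and -0.20, and 1 filled circle each stands in the INK4, BCL2 and secretome lists.

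Genes of the cell cycle differed in the other direction from Cdkn2a and Cdkn2b. Of 24 proliferation genes 15 were tested, and 8 rose at an adjusted p under 0.05, where 1.04% of all tested genes did. In 14 of the 15 every Nipbl+/- culture was above every WT culture, against 12% of the tested genes, and Tyms (72.5 and 71.4 CPM) was the exception. Mki67, the marker of cycling cells, was at 142.7, 173.7 and 171.6 CPM in WT and at 228.5, 219.6 and 253.5 CPM in Nipbl+/- (log2 fold change 0.52, edgeR adjusted p = 0.0311). Ccna2, Top2a, Mcm6, Mcm7, Ccnb2, Cdk1 and Bub1 rose by 0.44, 0.45, 0.45, 0.31, 0.42, 0.38 and 0.44 on the log2 scale. The 15 genes summed to 1204 to 1311 CPM in WT and 1577 to 1784 CPM in Nipbl+/-. The Cdkn2a CPM divided by the Mki67 CPM was 1.08, 0.729 and 0.828 in WT and 0.425, 0.524 and 0.367 in Nipbl+/-. The number of proliferation genes past the threshold was 0 without WT replicate 1, Nipbl+/- replicate 1 or Nipbl+/- replicate 2, 1 without WT replicate 3, 2 without Nipbl+/- replicate 3 and 9 without WT replicate 2. In the fits that gave 0, the higher genes over the whole table numbered 2, 1 and 3. With 1 culture left out, the log2 fold change of Mki67 was 0.44 to 0.57. The exact and likelihood ratio tests of edgeR each gave 10 of the 15, the replicate block 4 and limma 0. DESeq2 gave 12, where 2.62% of all tested genes were higher.

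Among macrophage markers, all 9 of the 17 listed markers that could be tested were higher in Nipbl+/- at an unadjusted p under 0.05, where 8.98% of all tested genes were, 0 of them passed after adjustment in edgeR's quasi-likelihood test, and their median log2 fold change was 1.04. DESeq2 gave 4 of the 9 as higher (C1qa, C1qb, C1qc and Ptprc), against 2.62% of all tested genes. The 9 markers summed to 58.3 to 78.3 CPM in WT and 92.7 to 186.1 CPM in Nipbl+/-, and Lyz2 made up most of this sum with a mean of 37.5 and 76.8 CPM. The defining markers Csf1r and Adgre1 lie on the plus strand. The part of such cells, of other cell types or of the share of cycling cells, in the Cdkn2a, Cdkn2b and p53 target values was not tested. The cultures also differed in sex markers, with Ddx3y at 238 to 258 CPM (without TMM scaling) in WT replicates 1 and 2 and Nipbl+/- replicate 3 and Xist at 301 to 361 CPM in the others. With the Xist level as a covariate the log2 fold change of Cdkn2a was -0.51 (edgeR adjusted p = 0.0368).

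The genes nearest to each of the 6 were found by the root mean square difference of log2 CPM, centred on each gene's mean over the 6 cultures, among 8293 genes. For Cdkn2a the nearest were Ropn1l (0.045), Cdkn2b (0.068) and Ptk2b (0.077), and 11 genes were within 0.1. Cdkn2b had Cdkn2a as its nearest gene, followed by Svop (0.072) and Pitpnc1 (0.073), and 29 genes were within 0.1. Each of these neighbours was thus among the 2 genes nearest to the other, over cultures that include the genotype difference. Mdm2 had Dhtkd1, Pde4dip and Gm11472 nearest, Ccng1 had Strn, Idh3b and Mccc2, and Bax had Rpl9-ps6, Timm23 and Cd2bp2. These 3 genes vary little, and 1546, 2089 and 2731 genes were within 0.1 of them.

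Igfbp3 had H19 (0.088) and Mir675 (0.097) nearest, and only these 2 were within 0.1. H19, an imprinted noncoding RNA of fetal tissue, was at 577.9, 340.1 and 788.2 CPM in WT and at 427.1, 365.8 and 518.7 CPM in Nipbl+/-, in the same order of cultures as Igfbp3. Mir675 lies within H19, so the reads of both count as a single observation. Igf2, the imprinted neighbour of H19, was lowest in WT replicate 2 (328.0 CPM) and highest in WT replicate 3 (676.1 CPM), like Igfbp3.

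**Figure D4:**
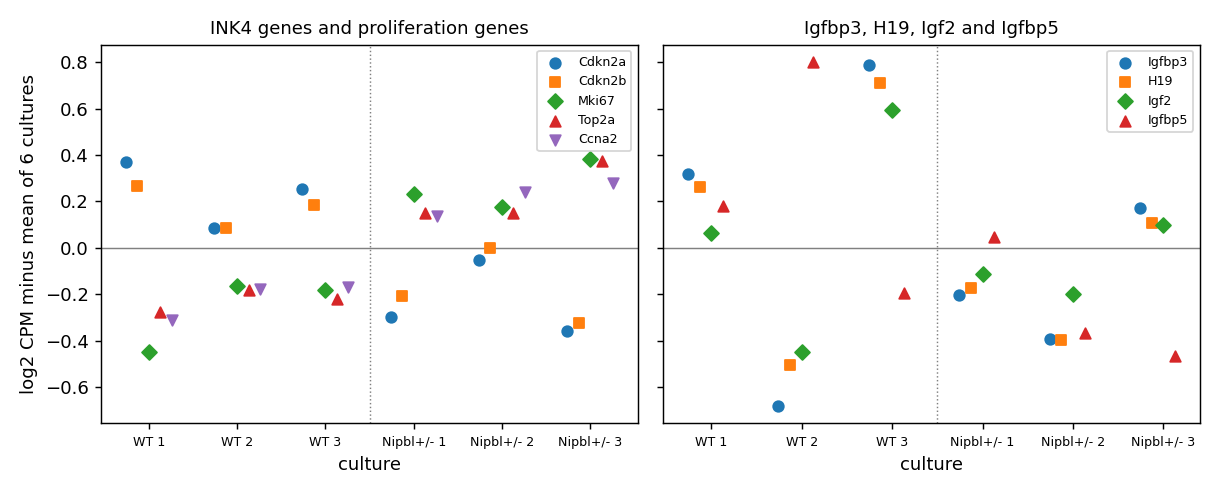
Log2 CPM minus the mean of the 6 cultures (vertical axis) in each culture (horizontal axis, WT left and Nipbl+/- right of the dotted line), for the INK4 and 3 proliferation genes (left panel) and for Igfbp3, H19, Igf2 and Igfbp5 (right panel). Cdkn2a and Cdkn2b lie side by side in every culture and mostly opposite to Mki67, Top2a and Ccna2, while Igfbp3, H19 and Igf2 swing together from WT replicate 2 to WT replicate 3.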

How the data were processed

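RNA-seq was measured in 3 WT and 3 Nipbl+/- MEF cultures, grouped by the titles and the genotype labels. Reads of rRNA-depleted RNA were mapped by the authors with TopHat2 2.0.10 to mm10 (Ensembl genes), and each deposited file holds a raw count per gene and an RPKM, which relates the count to the gene's length and the size of the library. The tool that counted the reads, and how it treated strand, are not given in the sources used here. All genes of the plus strand were listed at 0, and nothing is reported of them.

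The deposited counts went through filterByExpr (minimum count 10), TMM scaling and edgeR's quasi-likelihood fit (edgeR 4.0.16, R 4.3.3) on genotype alone. SE was taken from the fold change and its F statistic, and 95% intervals use the t distribution on the fit's degrees of freedom. Exact permutation tests were two-sided. Log2 CPM used a prior count of 2. RPKM values served to compare levels between genes. Counts of replicates differed by more than sampling noise (chi-square per degree of freedom 7.85 to 25.7), so all 6 cultures were kept as separate samples. That chi-square is taken over all genes, and counting error was not worked out gene by gene. It can weigh more in genes with few reads.

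The genes and the 10 pathway and 7 marker lists were chosen with earlier results of these data known. The genes named are the 6 genes, Nipbl, genes of fixed roles, in each list those past the threshold and the 3 with the smallest p under 0.05, and the 3 genes nearest in profile to each, except 2 genes that are not reported here. Marker genes and the 3 tested genes with a p53 element were named beyond this rule. Promoter sequences are RefSeq's (GRCm38.p6), and transcripts and overlaps are from GENCODE M21 of the same build. All 6 genes were matched. The 17 alternatives were other normalizations, filters and tests (edgeR exact and likelihood ratio tests, DESeq2 1.42.0, limma 3.58.1 on log2(RPKM + 0.1)), the replicate number as a block, the Xist level as a covariate, and each culture left out. The steps were tested on simulated data.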

Additional observations from a re-analysis of the deposited data

How the results depend on the processing

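The log2 fold changes of Cdkn2a, Cdkn2b, Mdm2, Ccng1, Bax and Igfbp3 stayed below 0 in all 17 alternatives. Cdkn2a passed an adjusted p of 0.05 with no filter on low counts (-0.4693), edgeR's exact and likelihood ratio tests (both -0.4702), DESeq2 (-0.4701) and the Xist covariate (-0.5141), and Cdkn2b with no filter (-0.3488), the exact and likelihood ratio tests (both -0.3496) and DESeq2 (-0.3495). Neither passed with the other normalizations, limma or CPM above 1 in 3 cultures. When 1 culture was left out, the fold changes were -0.5685 to -0.4038 for Cdkn2a, -0.4432 to -0.2786 for Cdkn2b, -0.1825 to -0.122 for Mdm2, -0.1523 to -0.0699 for Ccng1, -0.1024 to -0.03097 for Bax, -0.6943 to -0.02481 for Igfbp3 and -0.4742 to -0.385 for Nipbl, whose limma estimate of -0.3847 did not pass. Igf2 ranged from -0.4213 to 0.1017, changing sign without WT replicate 3. The causes were not tested.

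The replicate numbers did not pair the cultures, since the deviations of same-numbered cultures correlated at -0.0621, -0.0364 and -0.142. With the replicate block, 34 genes were higher and 52 lower, Cdkn2a was at -0.4721 (adjusted p = 0.108) and Cdkn2b at -0.3542 (adjusted p = 0.139) in edgeR, and the lists gave 0 genes for the INK4 axis, 1 for p53 arrest and feedback, 0 for the BCL2 family, 1 for IGF genes and 4 for proliferation.

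Genes higher and lower over the whole table numbered 94 and 83. Library size alone gave 142 higher, no filter 173 and 152, the exact test 219 and 213, the likelihood ratio test 224 and 218, DESeq2 237 and 212, and limma 18 and 12. Leaving out 1 culture gave 1 to 130 higher and 2 to 138 lower, with the lowest counts without Nipbl+/- replicate 1 and the highest without WT replicate 2. Genes past the threshold in the INK4 axis (1) numbered 0 with upper-quartile normalization and with limma, 3 with no filter, 5 with each of the exact test, the likelihood ratio test and DESeq2, 2 with the Xist covariate, and 0 to 2 with 1 culture left out. No filter, the exact test and the likelihood ratio test each gave 1 gene for p53 arrest and feedback, 1 for p53 death, 1 for p53 repair and metabolism and 1 for IGF genes, where the quasi-likelihood test gave 0. DESeq2 gave 1, 1, 2 and 1 for these lists and 3 of the 6 tested for the senescence secretome, against 4.96% of all tested genes. Library size alone gave 0 for the BCL2 family and 1 for IGF genes, and limma 0 each for the BCL2 family, the secretome and proliferation. With 1 culture left out the BCL2 family gave 0, p53 repair 0 to 1, the secretome 0 to 1 and proliferation 0 to 9. Regulators of the Ink4 locus and of p53 gave 0 in all alternatives.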

Other observations

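Among the genes nearest in profile to Cdkn2a and Cdkn2b, Ptk2b, a focal adhesion kinase relative, was the one that passed the threshold. It fell from 46.3, 41.0 and 42.6 CPM in WT to 30.5, 32.3 and 25.97 CPM in Nipbl+/- (log2 fold change -0.55, edgeR adjusted p = 0.0301). It lies on another chromosome than the Ink4 locus. Ptk2b was picked for its likeness to Cdkn2a over the same 6 cultures, so a lower level in Nipbl+/- was built into the choice. Its adjusted p is therefore a description. Of all tested genes, 0.916% were lower at that threshold. Col2a1, a cartilage collagen gene, ranged from 119 to 472 CPM within WT and from 255 to 319 CPM within Nipbl+/-.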
